A study of Arabidopsis thaliana with 12 samples.

Results

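The genes described here are 3 auxin response genes, IAA29 (AT4G32280), GH3.3 (AT2G23170) and GH3.5 (AT4G27260), and PID2 (AT2G26700), a kinase gene related to PINOID. They are 4 of the 13286 loci with a probe set of their own in the platform annotation, and each has 1 such probe set. They were picked with their levels on these 12 arrays known, so those levels and the differences between genotypes are given as a description, with no test. The annotation used for names lists GH3.5 as WES1, with GH3.5 as a synonym. No coordinates are printed, because no source used here names a build. IAA29 and GH3.5 lie on chromosome 4, and GH3.3 and PID2 on chromosome 2.

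RNA came from whole seedlings of Arabidopsis thaliana (Col-0) collected 5 days after they germinated. All samples are listed with the same stratification, 2 days at 4 °C. Growth temperature and light cycle were also the same for all, with more hours of light than of dark. The groups were scrm-D;mute (the double mutant), scrm-D, spch and wild type (WT), each with 3 biological replicates numbered 2, 3 and 4. Per the labels, the epidermis of scrm-D;mute is almost entirely meristemoids, the self-renewing precursors of stomata, that of scrm-D is guard cells, and that of spch is pavement cells only. SPCH and MUTE are transcription factors that act in turn in the stomatal lineage. Their partner is SCRM, of which scrm-D is a dominant allele. The alleles of spch and mute are not named in the labels. One label of the scrm-D samples, the description, reads as the double mutant, but title and genotype say scrm-D and were followed. All tissue of the seedling was pooled, so a level reflects leaf, stem and root cells as well as epidermis.

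Auxin acts by bringing Aux/IAA repressors to F-box receptors of the TIR1/AFB family, after which the repressors are degraded and auxin response factors are released. Aux/IAA and GH3 genes are themselves switched on by auxin, and GH3 enzymes attach amino acids to the hormone, which lowers its free level. Auxin moves between cells through PIN efflux carriers, which PINOID and related AGC kinases phosphorylate. In the epidermis, auxin and its transport are known to take part in the divisions of the stomatal lineage.

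Values are on the log2 scale as deposited, so a difference of 1 is a doubling in signal. Probe sets for bacterial controls, read where the transcript had not been added, had a 95th percentile of 4.99, called the background level here. Their maximum was 6.61, on scrm-D;mute replicate 4. Array medians lay between 6.39 and 6.53. The check of the labels by the lineage factors gave SPCH values of 10.56 to 10.89 in scrm-D;mute, 7.13 to 8.17 in scrm-D and 5.11 to 5.41 in spch, against 6.15 to 6.71 in WT. MUTE read 10.61 or more in the double mutant, although its gene carries the mute lesion, and where that lesion lies relative to the probe set is unknown here. On 1 array, scrm-D;mute replicate 4, controls for the transcript spiked into the scrm-D samples read above the other arrays that lacked it, as given in the closing section. On spch replicate 4 the 25S rRNA control read 11.04, against 8.66 and 9.19 on the other spch arrays.

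IAA29, an Aux/IAA repressor, was highest in WT and lower in all 3 mutants. It read 5.00, 4.97 and 4.78 in scrm-D;mute, 4.76, 4.80 and 4.61 in scrm-D, and 5.02, 5.06 and 5.13 in spch, against 6.11, 5.54 and 5.66 in WT. Every one of the 9 mutant values lay under the lowest WT value. The means of the double mutant and scrm-D lay under the background level and that of spch just above it, so WT was the genotype whose values stood furthest above that level. The WT values still lay under the control maximum of 6.61, which comes from the flagged array scrm-D;mute replicate 4. On the other 8 arrays without that transcript the same probe set read at most 5.88, and WT replicate 2 lay above this.

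The difference in IAA29 from WT was −0.70 ± 0.14 (SE) in spch, 1.62-fold lower. In scrm-D and scrm-D;mute the fitted differences were −1.04 ± 0.14 and −0.85 ± 0.14, and with values under the background level set to it, IAA29 was at least 1.71-fold lower in each. The order of the means was scrm-D, the double mutant, spch and WT. The values of scrm-D and the double mutant overlapped, those of the double mutant lay below those of spch by 0.0159 at the nearest, and the step between spch and WT was 0.412 at the nearest. All 3 WT values lay above all 9 mutant values in 880 of the 22746 probe sets tested (3.87%), and in 274 of the 22746 the WT mean exceeded the next genotype mean by at least as much as in IAA29. In a sample of bulk tissue, fewer cells of a type and less RNA per cell cannot be told apart.

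**Figure D1:**
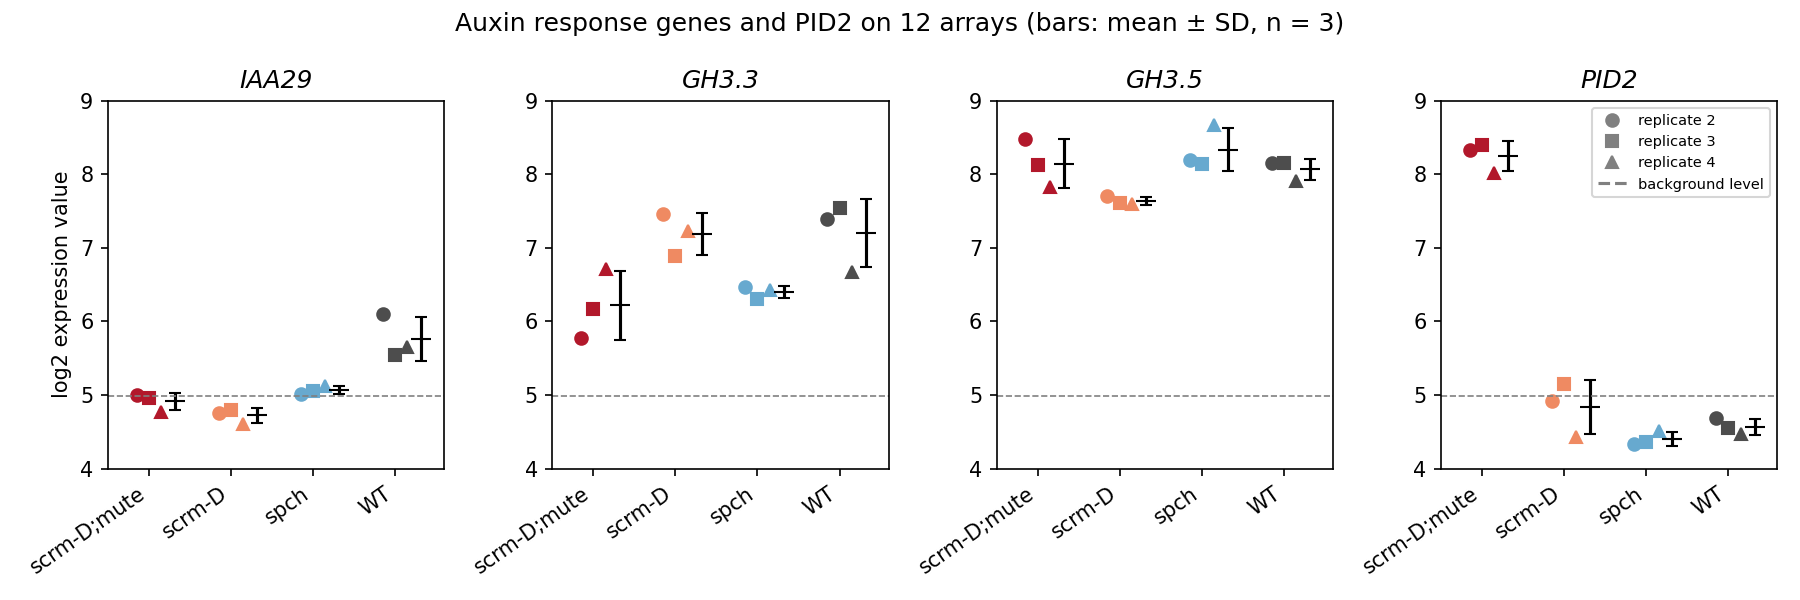
Log2 expression values (y axis) of IAA29, GH3.3, GH3.5 and PID2 in scrm-D;mute, scrm-D, spch and WT, with 1 point per array, the shape giving the replicate number, bars for mean ± SD (n = 3) and a dashed line at the background level of 4.99. IAA29 is highest on the WT arrays, and PID2 reads 8.02 to 8.39 in scrm-D;mute and at most 5.16 elsewhere.

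GH3.3, which encodes an enzyme that conjugates auxin to amino acids, was lower in scrm-D;mute and spch than in scrm-D and WT. It read 5.77, 6.17 and 6.71 in the double mutant, 7.46, 6.89 and 7.22 in scrm-D, and 6.47, 6.31 and 6.42 in spch, against 7.39, 7.54 and 6.67 in WT. WT replicate 4 lay well below the other WT arrays and below the highest scrm-D;mute value. The values of the double mutant had the same SD as those of WT, 0.47, with replicate 4 as the highest.

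Between scrm-D;mute and scrm-D the difference in GH3.3 was −0.97 ± 0.25 (SE), 1.96-fold lower, and the groups did not overlap. With 1 array left out it ranged from −1.22 (without scrm-D;mute replicate 4) to −0.75 (without scrm-D;mute replicate 2). In spch it was −0.80 ± 0.25 from WT, 1.74-fold lower, again without overlap. Against WT, the double mutant differed by −0.98 ± 0.25 with an overlap, and with 1 array left out by −1.25 (without WT replicate 4) to −0.76 (without scrm-D;mute replicate 2). The means of scrm-D and WT were 7.19 ± 0.29 and 7.20 ± 0.47 (SD, n = 3), a difference of −0.01 ± 0.25 (SE). In the order the double mutant, spch, scrm-D and WT, the first pair overlapped, the last pair overlapped, and spch lay 0.414 below scrm-D at the nearest.

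GH3.5, a related enzyme that also acts on the defence hormone salicylic acid, differed less, with genotype means within 0.70 of each other. It read 8.48, 8.12 and 7.83 in scrm-D;mute, 7.70, 7.60 and 7.60 in scrm-D, and 8.19, 8.14 and 8.67 in spch, against 8.15, 8.15 and 7.90 in WT. The scrm-D values were the lowest and the most alike, and the other 3 genotypes overlapped.

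In scrm-D, GH3.5 was 1.35-fold lower than in WT (log2 difference −0.43 ± 0.17, SE) and 1.62-fold lower than in spch (−0.70 ± 0.17), both without overlap. In scrm-D;mute it lay above scrm-D by 0.51 ± 0.17, also without overlap. The differences from WT in spch and the double mutant were 0.27 ± 0.17 and 0.07 ± 0.17. GH3.5 and GH3.3 thus had different orders over the genotypes: scrm-D was lowest for GH3.5 and level with WT for GH3.3. Their Pearson correlation over the 12 arrays was −0.54, a description only, since arrays of 1 genotype share its level.

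The 25S rRNA control differed between genotypes and moved with GH3.5 within some of them. Its log2 values were 10.84, 11.06 and 6.96 in scrm-D;mute, 10.07, 9.74 and 8.98 in scrm-D, and 8.66, 9.19 and 11.04 in spch, against 7.27, 7.50 and 6.56 in WT. GH3.5 was highest in spch on replicate 4, where the control was highest, and lowest in the double mutant and WT on replicate 4, where the control was lowest. With the control as a covariate GH3.5 differed from WT by −0.28 ± 0.16 in the double mutant, −0.79 ± 0.16 in scrm-D and −0.09 ± 0.16 in spch, so the sign turned in the double mutant and spch. All scrm-D and spch arrays read higher on the control than any WT array, and only replicate 4 of the double mutant read within the WT range. Differences from WT with this covariate therefore rest on extrapolation and are no corrected estimates. Without spch replicate 4, the spch difference was 0.10 ± 0.17. For GH3.3 the covariate gave −0.74 ± 0.31, 0.23 ± 0.31 and −0.56 ± 0.32 in the same genotypes, and for IAA29 −0.99 ± 0.17, −1.18 ± 0.17 and −0.84 ± 0.17.

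**Figure D2:**
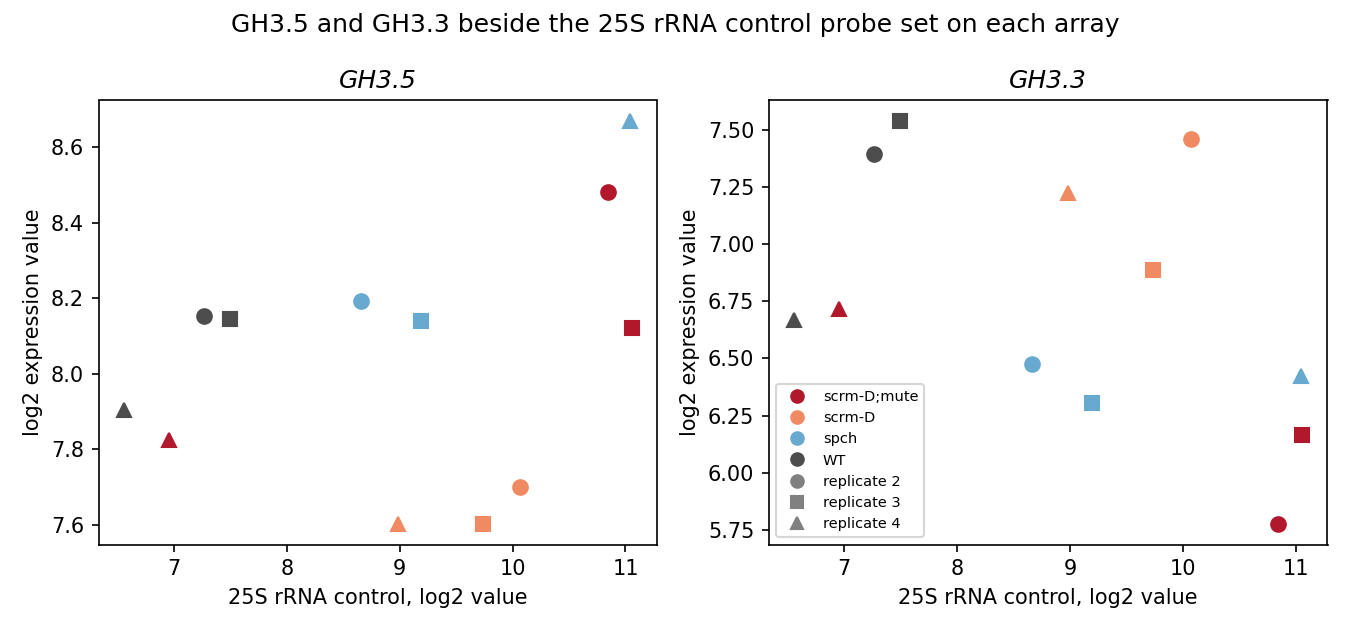
Log2 values of GH3.5 (left) and GH3.3 (right) on the y axis against the 25S rRNA control probe set on the x axis, with 1 point per array, the colour giving the genotype and the shape the replicate number. On the left, spch replicate 4 and scrm-D;mute replicate 2 combine high GH3.5 values of 8.67 and 8.48 with control values of 11.04 and 10.84, while the scrm-D arrays lie low at 7.60 to 7.70.

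PID2, whose product belongs to the PINOID group of AGC kinases, was high in scrm-D;mute alone. It read 8.33, 8.39 and 8.02 in the double mutant, 4.92, 5.16 and 4.44 in scrm-D, and 4.34, 4.36 and 4.51 in spch, against 4.69, 4.55 and 4.47 in WT. Only scrm-D replicate 3 lay above the background level among the other 9 arrays, and the means of scrm-D, spch and WT all lay under that level. The lowest scrm-D;mute value stood 2.87 above the highest scrm-D value, 3.51 above the highest spch value and 3.33 above the highest WT value.

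With values under the background level set to it, PID2 in scrm-D;mute exceeded WT by at least 9.56-fold, scrm-D by at least 9.20-fold and spch by at least 9.56-fold. The fitted differences were 3.68 ± 0.17, 3.41 ± 0.17 and 3.85 ± 0.17 (SE). No fold is given among scrm-D, spch and WT, all under background, and their values overlapped in the order spch, WT and scrm-D. The scrm-D values spread most, from 4.44 on replicate 4 to 5.16 on replicate 3. In 1754 of the 22746 probe sets (7.71%) all 3 scrm-D;mute values lay above the other 9. In 11 of the 22746, PID2 included, the scrm-D;mute mean exceeded the next genotype mean by at least 3.41.

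The meristemoid markers, like PID2, were highest in scrm-D;mute. The 2 measured of 6 listed markers of meristemoids, SPCH and MUTE, had summed levels (values taken back from the log2 scale) of 3198 to 3943 in scrm-D;mute, 235 to 478 in scrm-D and 55 to 60 in spch, against 93 to 128 in WT. They were also higher in scrm-D than in WT, with MUTE at 6.57 to 7.58, whereas PID2 stayed near background there. Both marker genes are themselves mutated here, SPCH in spch and MUTE in scrm-D;mute, so their levels need not follow the number of meristemoids. The 3 measured of 7 guard cell markers, FAMA, BLUS1 and AT1G22690, summed to 247 to 648 in the double mutant, 7786 to 9412 in scrm-D and 92 to 981 in spch, against 1534 to 2086 in WT. AT1G22690 is the largest term of these sums on all arrays but spch replicate 4. It was not called against WT in any mutant, and it read 4.31 on spch replicate 4, against 9.70 and 9.64 on the other spch arrays. FAMA was called lower in scrm-D;mute and spch and higher in scrm-D, and BLUS1 was called lower in spch and higher in scrm-D. The 2 measured of 3 root hair markers summed to 112 to 153, 163 to 217 and 65 to 71, against 133 to 198 in WT. The 6 measured of 7 mesophyll genes summed to 32070 to 35730, 30777 to 36441 and 46333 to 51328 in the same order, against 48250 to 49912 in WT. The part of these cell types in the levels of the 4 genes was not tested.

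The 4 genes had no common pattern. Counting genes whose 3 values in one genotype lay clear of the 3 in the other, 2 of 4 did so between scrm-D;mute and WT (IAA29 lower, PID2 higher), where 41.4% of all probe sets did. Between scrm-D and WT it was 2 of 4 (IAA29 and GH3.5, both lower), with 30.0% of all probe sets. Between spch and WT it was 2 of 4 (IAA29 and GH3.3, both lower), with 35.1%. Between the double mutant and scrm-D it was 3 of 4 (GH3.5 and PID2 higher, GH3.3 lower), with 28.4%. Between the double mutant and spch it was 2 of 4 (PID2 higher, IAA29 lower), with 44.0%. Between scrm-D and spch it was 3 of 4 (GH3.3 higher, IAA29 and GH3.5 lower), with 40.9%. In both of these the IAA29 mean of spch lay just above background and the other mean under it. With values under that level set to it, IAA29 differed 1.05-fold and 1.06-fold. The 6 comparisons share groups, and nothing is read from the counts, because the genes were chosen on these arrays. Replicate 4 of the double mutant had the lowest IAA29, GH3.5 and PID2 value and the highest GH3.3 value of its genotype. Without it the differences between scrm-D;mute and scrm-D were 0.67 ± 0.17 for GH3.5 and 3.52 ± 0.18 for PID2, against 0.51 ± 0.17 and 3.41 ± 0.17 with it. Without scrm-D;mute replicate 2 that of GH3.5 was 0.34 ± 0.17.

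Other genes of the auxin pathway were read from lists of repressors, response factors, receptors, GH3 enzymes, transporters, kinases and enzymes of synthesis and breakdown. Of 138 listed loci, 21 had a probe set of their own in the platform annotation, which is what measured means in this text. A search of the annotation for auxin terms added IAGLU, which gave 22 genes. The annotation lists no gene for 8794 probe sets and several for 503, so a locus counted as not measured may still have a probe set on the array. None of the listed receptors, response factors or transporters was among the 22 genes, so these were not analysed here. Of the 22 genes, 9 lay under the background level in every genotype, among them 5 of the 6 measured Aux/IAA genes besides IAA29. Over all probe sets, 16575 of the 22746 tested had a genotype mean above that level. A larger part of the list was therefore dim, which the shares of called genes given below do not allow for.

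HAT2, YUC2, YUC6, GH3.17 and AT2G44830 fell in both scrm-D genotypes, while 16 of the 22 genes had no call in each of these comparisons with WT. In scrm-D;mute 6 of the 22 fell and none rose relative to WT (27.3%, with 27.7% of all probe sets called), with a median difference of −0.23 against −0.00737 over all probe sets. In scrm-D 6 fell and none rose (27.3%, with 14.2% of all probe sets called), with a median of −0.14 against −0.0143. Counting falls alone, 13.6% of all probe sets were called lower in scrm-D;mute and 7.39% in scrm-D. At limma's unadjusted p under 0.05, 0 of the 22 genes were higher in either genotype, with 19.8% of all probe sets higher in scrm-D;mute and 12.9% in scrm-D. At that limit 10 were lower in scrm-D;mute, with 18.0% of all probe sets, and 7 in scrm-D, with 13.3%. Mesophyll genes also fell in these genotypes, 5 of 6 measured in scrm-D;mute and 3 of 6 in scrm-D, and none of the 6 was called in spch. Their part in the levels of the auxin genes was not tested. In spch 1 rose and 1 fell (9.09%, with 19.5% of all probe sets called), with a median of −0.04 against −0.00448. Between the double mutant and scrm-D 2 fell (9.09%, with 13.4% called), with medians of −0.06 and 0.00223. Relative to spch, 8 fell and 1 rose in the double mutant (40.9%, with 33.2% called), and 6 fell and 1 rose in scrm-D (31.8%, with 30.0% called). Of these comparisons, scrm-D with WT had the largest share called relative to all probe sets, and no test of the list was made. With the 25S rRNA control as a covariate, 4 of the 22 genes were called lower in scrm-D than in WT.

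HAT2, a homeodomain transcription factor gene induced by auxin, fell the most in scrm-D;mute. It read 7.25 to 7.36 in the double mutant, 7.54 to 7.83 in scrm-D and 8.16 to 8.37 in spch, against 8.25 to 8.62 in WT. It fell 2.26-fold in the double mutant (adjusted p = 2.64e-05, limma) and 1.67-fold in scrm-D (adjusted p = 0.00180, limma), and in spch it differed by −0.22 ± 0.13 (adjusted p = 0.267, limma). It was also lower in the double mutant than in scrm-D, by −0.44 ± 0.13 (adjusted p = 0.0371, limma), a call that ended without any 1 of scrm-D;mute replicates 2, 3 and 4 and scrm-D replicates 2 and 3 (adjusted p = 0.0706, 0.114, 0.0755, 0.114 and 0.112).

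YUC2 and YUC6, flavin monooxygenases that make auxin, fell in both scrm-D genotypes. YUC6 read 5.33 to 5.45 in scrm-D;mute, 5.52 to 5.61 in scrm-D and 5.80 to 5.87 in spch, against 5.93 to 6.05 in WT. It fell by 0.59 in the double mutant (adjusted p = 0.000369, limma) and by 0.43 in scrm-D (adjusted p = 0.00616, limma, and 0.0515 with the 25S rRNA control as a covariate). YUC2 read 5.38 to 5.64 in the double mutant and 5.15 to 5.36 in scrm-D, against 5.85 to 6.42 in WT. It fell by 0.80 in scrm-D (adjusted p = 0.00430, limma) and by 0.56 in the double mutant (adjusted p = 0.0166, limma). The scrm-D;mute call of YUC2 ended without WT replicate 3 or scrm-D;mute replicate 2 or 4 (adjusted p = 0.0594, 0.0535 and 0.0540).

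Among the relatives of GH3.3 and GH3.5, 3 of 9 listed genes were measured. GH3.17, which conjugates auxin mainly to glutamate, read 8.10 to 8.24 in scrm-D;mute, 8.19 to 8.45 in scrm-D and 8.55 to 8.82 in spch, against 8.71 to 9.21 in WT. It fell by 0.78 in the double mutant (adjusted p = 0.000943, limma) and by 0.65 in scrm-D (adjusted p = 0.00619, limma), and differed by −0.30 ± 0.13 in spch (adjusted p = 0.150, limma). GH3.1 and GH3.9 lay near the background level, with genotype means of 4.79 to 5.01 and 4.79 to 5.24, and had no call against WT (limma, adjusted p from 0.160 to 0.463 for GH3.1 and from 0.209 to 0.955 for GH3.9). By genotype means, GH3.3 was lower than WT in the double mutant and spch and level with it in scrm-D. GH3.5 had a mean under that of WT in scrm-D alone. For GH3.17 the means of all 3 mutants were lower than that of WT, with calls in the double mutant and scrm-D. No calls were made for GH3.3 and GH3.5, and GH3.3 in the double mutant overlapped WT, so these 3 conjugating enzymes were not compared by a single rule.

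IAGLU (AT4G15550), named in the annotation as a glucosyltransferase of auxin, had the largest rise among the 22 genes. It read 7.33 to 7.55 in scrm-D;mute, 7.78 to 8.02 in scrm-D and 9.53 to 9.76 in spch, against 7.79 to 7.96 in WT. It rose 3.49-fold in spch (log2 change 1.80 ± 0.11 SE, adjusted p = 2.20e-06, limma). In the double mutant it fell by 0.41 against both WT and scrm-D (adjusted p = 0.0164 and 0.0280, limma). The first of these calls ended without WT replicate 2 or scrm-D;mute replicate 4 (adjusted p = 0.0636 and 0.0635). The second ended without scrm-D;mute replicate 2 or 4 or scrm-D replicate 2 or 4 (0.0604, 0.0857, 0.0988 and 0.0539).

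In the kinase list that PID2 belongs to, 2 of 15 genes were measured, and neither was high in scrm-D;mute. WAG2, a kinase that acts with PINOID on PIN carriers, read 5.32 to 5.51 in the double mutant, 5.15 to 5.48 in scrm-D and 4.85 to 5.26 in spch, against 5.64 to 5.97 in WT. It fell by 0.70 in spch (adjusted p = 0.00357, limma) and by 0.44 in scrm-D (adjusted p = 0.0478, limma), and differed by −0.37 ± 0.14 in the double mutant (adjusted p = 0.0639, limma). The scrm-D call ended without any 1 of the arrays other than spch replicates 2 and 3 (adjusted p from 0.0538 to 0.174) and in the fit blocked on replicate number (adjusted p = 0.0537). That call also ended in limma's fit of those genotypes alone (adjusted p = 0.0752), with the 25S rRNA control as a covariate (0.133) and with trend and robust moderation (0.0649). AT2G44830, listed with these kinases, read 5.82 to 6.31 in the double mutant, 5.96 to 6.36 in scrm-D and 6.42 to 6.76 in spch, against 6.88 to 7.06 in WT. It fell by 0.92 in scrm-D;mute (adjusted p = 0.000751, limma) and by 0.86 in scrm-D (adjusted p = 0.00245, limma), with −0.41 ± 0.15 in spch (adjusted p = 0.0851, limma). Like IAA29, WAG2, AT2G44830, YUC6 and GH3.1 had all 3 WT values above all 9 mutant values, 4 of the 22 genes, with 3.87% of all probe sets. For GH3.1 the lowest WT value of 4.956 and the highest mutant value of 4.954 both lay under the background level.

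The measured Aux/IAA gene with a signal above background was IAA18, and it was not called against WT. It read 8.11 to 8.53 in scrm-D;mute, 8.22 to 8.84 in scrm-D and 9.05 to 9.33 in spch, against 8.65 to 8.81 in WT. It differed by 0.43 ± 0.16 in spch (adjusted p = 0.0909, limma) and by −0.43 ± 0.16 in the double mutant (adjusted p = 0.0706, limma). Some other limma fits called these differences. The fit blocked on replicate number, that of the compared genotypes alone and that without scrm-D replicate 4 called both. Their adjusted p were 0.0393, 0.0386 and 0.0345 in spch and 0.0307, 0.0440 and 0.0258 in the double mutant. The double mutant difference was also called with arrays centred on their medians (0.0433), with a further quantile normalization (0.0427) and without scrm-D;mute replicate 3 (0.0499). Relative to spch, IAA18 fell by 0.85 in the double mutant (adjusted p = 0.00136, limma) and by 0.56 in scrm-D (adjusted p = 0.0194, limma). The scrm-D call ended without spch replicate 2 (adjusted p = 0.0775, limma) and without scrm-D replicate 4 (difference −0.37, adjusted p = 0.0775, limma).

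**Figure D3:**
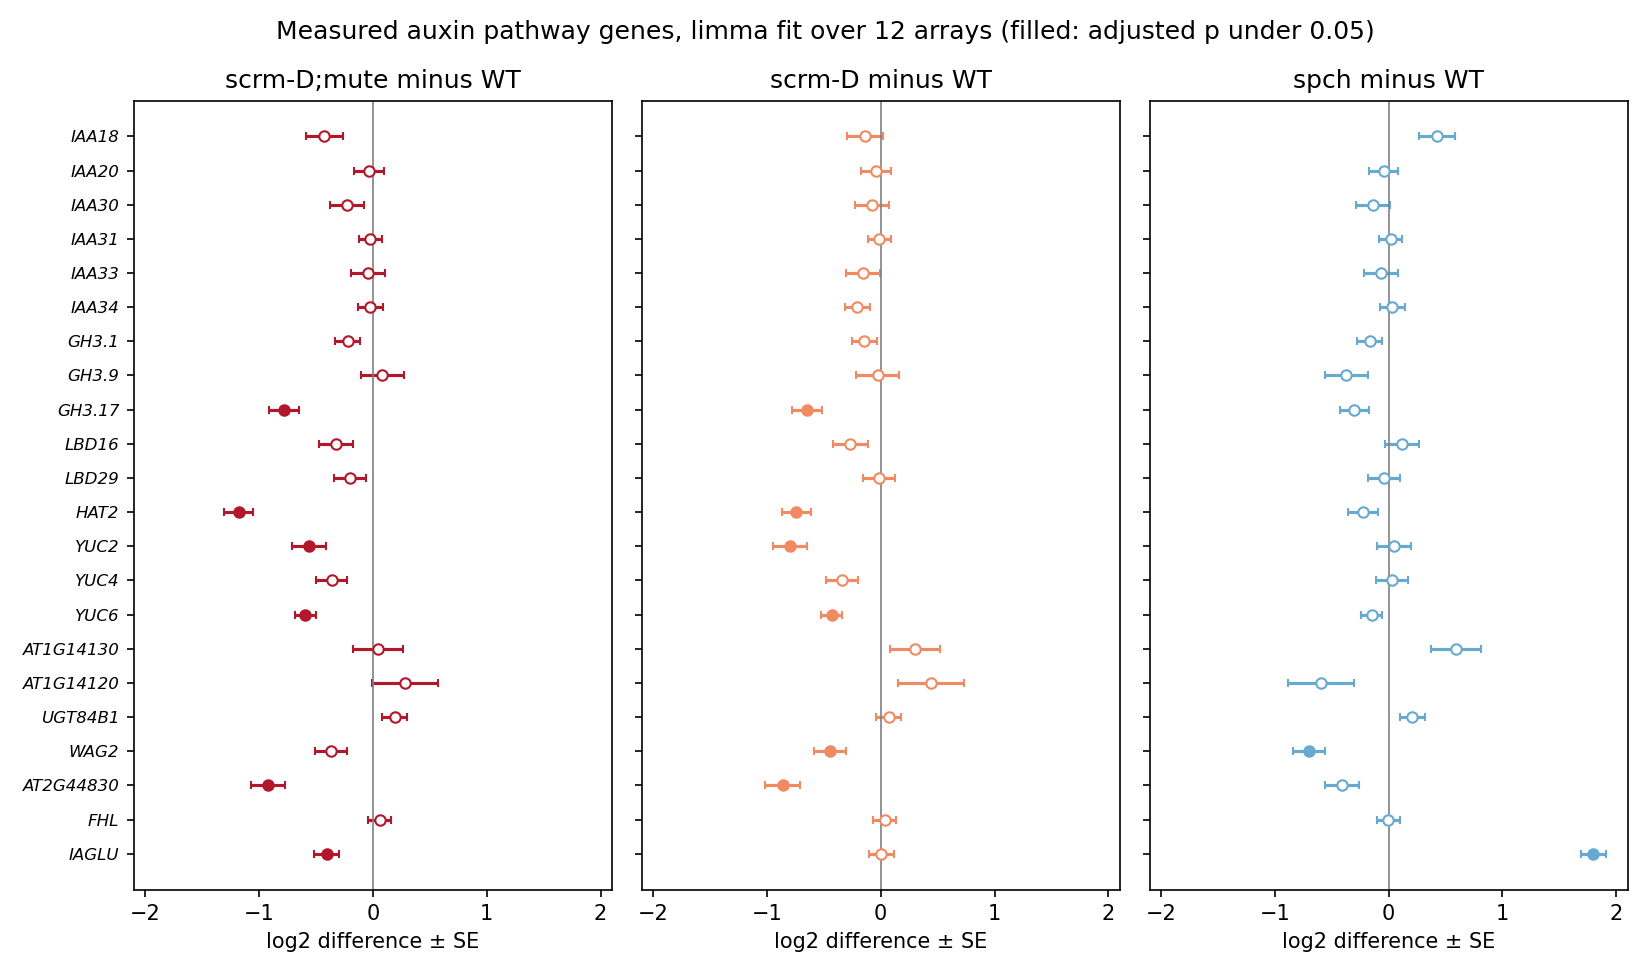
Log2 differences (x axis, ± SE) of the 22 measured auxin pathway genes (rows) in scrm-D;mute, scrm-D and spch relative to WT, with filled points for an adjusted p under 0.05. In the scrm-D;mute and scrm-D panels all filled points lie left of 0, and in the spch panel IAGLU lies at 1.80 and WAG2 at −0.70.

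The single-gene probe sets most like each of the 4 genes were ranked by Pearson correlation over the 12 arrays, among the 1993 or 1994 others whose genotype means span at least 1. These values are a description, since arrays of 1 genotype share its level. For PID2 they were AT1G16220 (r = 0.998), AT5G08460 (0.992), AT4G00870 (0.991) and AT2G19660 (0.990), which the annotation lists by locus alone. AT1G16220 had means of 8.74 in scrm-D;mute, 5.44 in scrm-D and 5.09 in spch, against 5.09 in WT. After the genotype means were taken out, its deviations correlated with those of PID2 with r = 0.858, while those of AT5G08460, AT4G00870 and AT2G19660 gave 0.0607, 0.432 and −0.257. Outside scrm-D;mute, PID2 lay under the background level on every array but scrm-D replicate 3. Many of its deviations are thus between readings under background, and these correlations are no measure of shared change within a genotype.

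**Figure D4:**
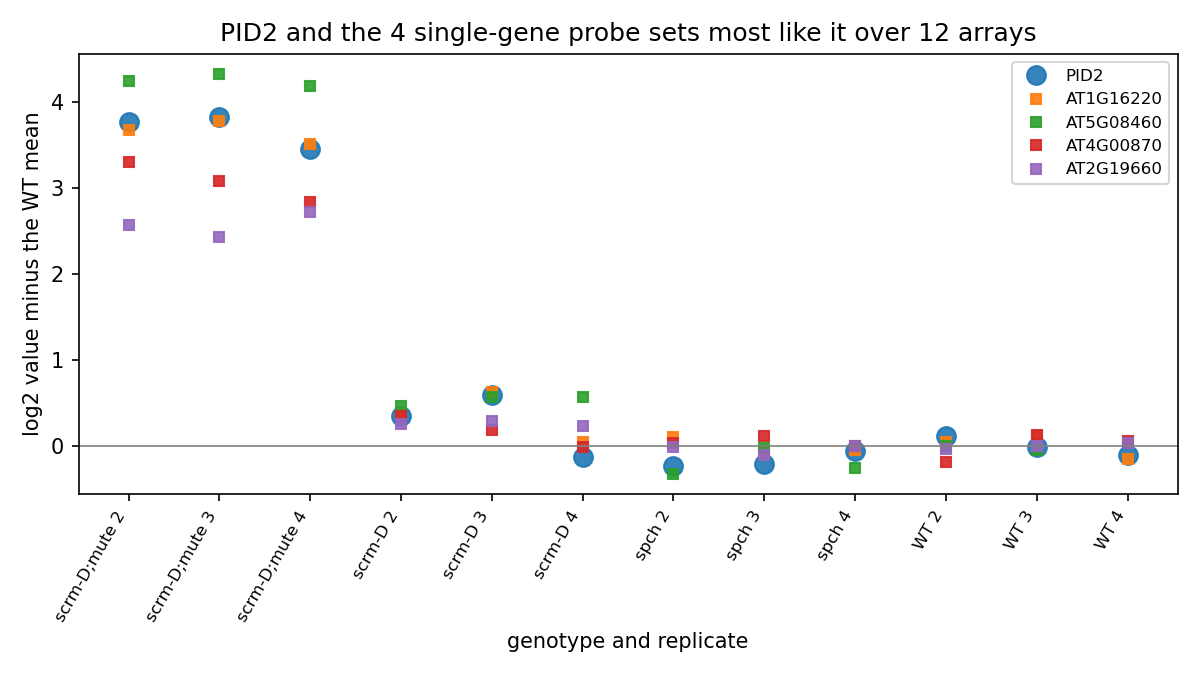
Log2 values minus the WT mean of each gene (y axis) on the 12 arrays (x axis) for PID2 (large circles) and the 4 genes most like it (squares). All 5 are high on the 3 scrm-D;mute arrays, and on scrm-D replicate 4 PID2 lies lower than on scrm-D replicates 2 and 3.

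For IAA29 the most alike were AT3G62630 (r = 0.941), AT1G31690 (0.930), the ubiquitin ligase gene PUB26 (0.927) and GLC (0.920). AT1G31690 had means of 4.49 in scrm-D;mute, 4.41 in scrm-D and 4.95 in spch, against 6.82 in WT, so its mean stood above background in WT alone. For GH3.3 they were AT5G14450 (0.853), the cellulose synthase-like gene CSLC04 (0.847), the glutathione transferase gene GSTU27 (0.835) and the plantacyanin gene ARPN (0.833). For GH3.5 they were AT4G19160 (0.886), the calmodulin-binding family gene IQD22 (0.870), AT2G23840 (0.846) and AT5G53900 (0.845). No gene was among the most alike of more than 1 of the 4.

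The neighbours of PID2 on chromosome 2 were read for comparison, as the 5 protein-coding loci on either side in the reference order. Of these 10 loci, 4 had a probe set of their own, and none was higher in scrm-D;mute than in WT by the test. AT2G26690 fell by 0.97 (adjusted p = 0.000402, limma). AT2G26680, AT2G26720 and AT2G26730 differed by 0.20 ± 0.12, −0.12 ± 0.09 and −0.35 ± 0.15, with adjusted p = 0.258, 0.383 and 0.114 (limma).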

How the data were processed

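The deposited table holds 1 log2 expression value for each of 22810 probe sets on 12 Affymetrix arrays, from biotin-labelled RNA primed with oligo-dT, per the labels' protocols. RMA and limma are named, with no version, in the submitters' processing notes, so the authors had already corrected and normalized the values. No detection calls were given. Precision is limited by how few arrays each genotype has. Groups and replicate numbers come from the titles. No value column was left unmapped.

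The 64 control probe sets were left out. The deposited log2 values entered a limma fit (version 3.58.1, R 4.3.3) that estimated a mean for each genotype from the 12 arrays, with two-sided tests and Benjamini-Hochberg adjustment over the 22746 remaining probe sets of each of 6 comparisons. A call is an adjusted p under 0.05, and errors of differences are standard errors of that fit (prior degrees of freedom 4.41). The fit was tested on simulated data. Replicates are called biological in the labels.

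Gene names came from the platform annotation, where 13513 probe sets have 1 gene, 503 several and 8794 none listed. Of those with 1 gene, 13436 matched a locus of TAIR10.1. The 4 genes and all lists were chosen with earlier results of these data known. Besides the 4 genes, the text names up to 6 called auxin pathway genes by adjusted p for each comparison with WT or scrm-D, all measured GH3, receptor and AGC kinase genes, and the 4 genes most like each member. IAA18 and the neighbours of PID2 were added after their values were seen. MGH3, a histone gene found by the letters GH3, was left out.

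The background level is the 95th percentile of control values on arrays without the transcript, chosen with the data known. Replicate numbers count as pairing where same-numbered arrays deviate together with r over 0.1 in all 3 pairs. The lowest value was 0.138 (spch with WT), 0.103 (scrm-D with WT), 0.215 (double mutant with scrm-D) and 0.110 (double mutant with spch), which count as pairs. It was 0.0826 (double mutant with WT) and 0.0338 (scrm-D with spch), which do not. The main fit had no term for the replicate number, so its standard errors and adjusted p leave this pairing out. Counts from a fit with a replicate block are given in the closing section. Arrays of different numbers also passed 0.1 in places, and no label says what a number stands for. Sequences of the 4 genes were not used here.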

Additional observations from a re-analysis of the deposited data

Results flagged for a closer look

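Control probe sets for bacterial transcripts, which no comparison used, were read on the arrays that lacked the transcript, and a value is given here where it lay over 0.25 above every other such array. On scrm-D;mute replicate 4 all 6 probe sets for the phe transcript, which was spiked into the scrm-D samples, met this. They read 6.61, 4.42, 4.45, 5.83, 4.72 and 4.88 on that array, where the highest values on the other 8 arrays without the transcript were 5.88, 4.07, 3.91, 4.30, 3.91 and 4.43. On the scrm-D arrays they read between 12.70 and 13.99. This is the array on which IAA29, GH3.5 and PID2 were lowest and GH3.3 highest in scrm-D;mute, and any part of the control signal in those values was not tested.

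Probe sets for 2 other control transcripts met the same limit singly. A dap probe set read 4.41 on scrm-D;mute replicate 3, against at most 4.07 on the other arrays without it, and a thr probe set read 4.78 on scrm-D replicate 4, against at most 4.47.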

How the results depend on the processing

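The differences of the 4 genes were recomputed under 6 other settings and with each of the 12 arrays left out, which leaves 240 values that could move. Of these 234 moved by less than 1 SD of the replicates and 6 by more, and no difference without overlap changed sign. Leaving out 1 of the 3 arrays of a genotype cannot move a difference by as much as 1 SD, so such values could not be among the 6. The count of 234 is therefore no measure of how steady the differences are. With the 25S rRNA control as a covariate, GH3.5 moved to −0.0907 in spch, −0.786 in scrm-D and −0.281 in scrm-D;mute relative to WT, and PID2 to 3.42 in scrm-D;mute. The value for PID2 in spch, −0.428, compares levels that are both under background and is no measured difference. With arrays centred on their medians, IAA29 differed by −0.253 between scrm-D;mute and spch, against −0.15, where the mean of scrm-D;mute lies under background. The probe sets called with the covariate were 2108 between spch and WT (4442 without it) and 3736 between scrm-D;mute and WT (6297 without it). With 1 array left out they ranged from 2955 (without spch replicate 4) to 4596 for spch with WT, from 2127 (without scrm-D replicate 4) to 3496 for scrm-D with WT, and from 1962 to 3333 for scrm-D;mute with scrm-D, with 1968 and 1962 without scrm-D;mute replicates 2 and 3. The 2 auxin genes called between scrm-D;mute and scrm-D were 0 in limma's fit of those genotypes alone and 0 with its trend and robust moderation, where 2 genes still had an unadjusted p under 0.05, and from 0 to 2 with 1 array left out. The causes were not tested. With the replicate block the auxin genes called were 3 in spch, 5 in scrm-D and 7 in scrm-D;mute relative to WT, against 2, 6 and 6 without it, IAA18 was called in scrm-D;mute with it (adjusted p = 0.0307), and the block cannot change the differences of the 4 genes in this balanced design. The background level limits what could be seen, since 9 of the 22 auxin genes lay under it in every genotype.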
